A study of Mus musculus with 4 samples.

Results

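The NF-κB family and its inhibitors were described here in γδ T cells sorted from the lung, as 10 genes out of 22865 in the count table. They were chosen by gene symbol, with earlier results of these data known. They are the 5 genes of the NF-κB subunits (Nfkb1, Nfkb2, Rel, Rela and Relb) and 5 genes of proteins that NF-κB induces and that act back on it (Nfkbia, Nfkbiz, Nfkbid, Bcl3 and Tnfaip3). The cells came from female C57Bl/6 mice, 10 weeks old, that were Aire-/- or Aire+/+, with 2 libraries from each genotype and 500 sorted cells in each library. Aire is the factor through which thymic epithelium shows developing T cells proteins of other tissues, and the design asks what its loss does to gene expression in these peripheral cells. The sort kept viable cells positive for CD45 and the γδ receptor and negative for TCRβ, CD27 and 4 Vγ chains, a population the submitters call Tgd17. RNA was amplified by Smart-Seq2, which copies whole transcripts from little material. How many mice each library drew on is not stated, so every p-value measures only how far these libraries differ, a spread that may be technical.

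NF-κB is a dimer of Rel-domain proteins that waits in the cytoplasm, bound by inhibitors of the IκB family. Receptors for interleukin-1, TNF, Toll-like ligands or antigen switch on the IκB kinase (IKK), which marks IκBα for destruction and frees dimers of RelA, c-Rel and p50 to enter the nucleus. A slower branch, driven by receptors such as CD40 and the lymphotoxin receptor, processes the Nfkb2 product p100 to p52, the usual partner of RelB. NF-κB then induces its own brakes, among them IκBα and the ubiquitin-editing enzyme A20. In γδ T cells that make interleukin-17, interleukin-1 and interleukin-23 are the best known activating cytokines, and the interleukin-1 receptor signals through this pathway.

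Because several members are known targets of NF-κB, their promoters were searched for the κB consensus, the degenerate 10-base site that NF-κB dimers bind, on both strands of the 250 bases before each transcription start listed by RefSeq (GRCm38.p6). Of the 10 members 7 had at least 1 window, 12 windows in all, and Nfkb1, Relb and Nfkbiz had none in the table. The consensus stood in a window of 5 of these 7 members, against 8.23% of all 27025 genes with a window, and in 7 of the 12 windows, against 7.25% of all 32851 windows. The windows of 3 members are shown, chosen because they hold a match and lie outside annotated exons or touch one by 1 base, with matches in capitals. Those of Rel (chr11:23770970-23771219, minus strand), Nfkbia (chr12:55492648-55492897, minus strand) and the second of Nfkbid (chr7:30422156-30422405, plus strand) read:
Rel: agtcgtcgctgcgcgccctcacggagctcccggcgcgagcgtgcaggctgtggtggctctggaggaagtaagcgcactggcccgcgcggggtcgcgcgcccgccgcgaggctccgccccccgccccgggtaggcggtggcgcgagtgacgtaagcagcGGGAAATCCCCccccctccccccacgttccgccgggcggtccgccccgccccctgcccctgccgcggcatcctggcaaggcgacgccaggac
Nfkbia: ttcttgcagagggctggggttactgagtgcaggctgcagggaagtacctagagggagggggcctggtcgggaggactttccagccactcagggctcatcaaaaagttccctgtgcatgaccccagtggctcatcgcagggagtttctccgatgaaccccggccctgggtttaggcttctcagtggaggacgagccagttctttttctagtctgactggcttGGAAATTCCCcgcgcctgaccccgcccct
Nfkbid: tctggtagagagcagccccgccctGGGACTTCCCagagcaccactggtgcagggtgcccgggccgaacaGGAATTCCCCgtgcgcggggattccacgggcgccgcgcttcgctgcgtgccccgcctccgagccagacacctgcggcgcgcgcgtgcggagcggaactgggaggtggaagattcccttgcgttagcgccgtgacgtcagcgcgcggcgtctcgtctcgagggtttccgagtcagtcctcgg
In Nfkbia the match starts 29 bases before the transcription start, and in Rel a pair of overlapping matches starts 92 and 91 bases before it. In Nfkbid the matches start 226 and 181 bases before the start. Tnfaip3 held GGGACACCCC at 125 and GGAAATCCCC at 12 bases before its first start, and the first Nfkb2 window held overlapping matches at 39 and 38 bases and GGGGCTTTCC at 11 bases. Annotated exons covered 110 of the 250 bases of that Tnfaip3 window and all 250 of that Nfkb2 window. The windows of Rela and Bcl3 held no match. A match is a string of letters and not a measured binding site.

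The 4 libraries had 1106891 to 1265239 counts and 16283 to 17423 genes detected. Levels are CPM, counts divided by library size after edgeR's TMM scaling. Aire itself had 0 counts in every library, which allows up to 3 counts, or 2.37 to 2.71 CPM, so the deleted gene checked no genotype label. All 10 γδ T17 markers on a list that includes Il17a and Il23r were detected and tested, and all 10 lay above 0 (log2 fold change, Aire-/- minus Aire+/+) at a median of 0.44, 6 of them at an unadjusted p under 0.05, with sums of 6741 to 7701 CPM in Aire-/- and 4655 to 6431 CPM in Aire+/+ libraries. The 4 CD3 chains lay above 0 too, at a median of 0.25. Transcripts of other cells were present. The summed level of 14 B cell markers, none at 0, was 2590 to 3398 CPM in Aire-/- and 4101 to 6659 CPM in Aire+/+ libraries, with all 14 log2 fold changes below 0. Without Igj, the antibody joining chain, the sums were 2586 to 3398 CPM in Aire-/- and 3393 to 5307 CPM in Aire+/+ libraries. Of 11 macrophage and monocyte markers in the table, of which Ear2 was at 0, 6 were tested and all 6 lay below 0, with sums of 385 to 438 CPM in Aire-/- and 464 to 890 CPM in Aire+/+ libraries. Of the 8 dendritic cell markers, none at 0 in all libraries, 1 of the 2 tested lay above 0 (Xcr1) and 1 below (Ccr7, which T and B cells also express). Their sum without Ccr7 was 47.1 to 70.3 CPM in Aire-/- and 24.2 to 42.8 CPM in Aire+/+ libraries, and with it 502 to 740 CPM in Aire-/- and 684 to 1258 CPM in Aire+/+ libraries. Aire+/+ replicate 1 had the highest sums of B cell and of macrophage markers, the lowest of dendritic cell markers without Ccr7, and the lowest of the CD3 chains, 1004 CPM against 1390 to 1532 CPM in the other 3 libraries. In such pooled samples, fewer cells of a type and less RNA per cell cannot be told apart.

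All 10 members were expressed in all 4 libraries and passed the filter on low counts. Nfkbia and Tnfaip3, the feedback inhibitors of the pathway, were the most abundant. Between genotypes, 8 of the 10 members leaned towards Aire-/- libraries, and the median of their log2 fold changes (Aire-/- minus Aire+/+) was 0.31, beside 50.9% of all 9783 genes tested lying above 0 at a median of 0.01. The γδ T17 markers of the sorted cells leaned the same way, at the median of 0.44 given above, and the part of the cell mixture in the members' lean was not tested. By edgeR's quasi-likelihood test 0 of the 10 were called at an adjusted p under 0.05, where 0.0204% of all genes tested were called, and DESeq2's Wald test and limma-voom also called 0. Unadjusted, 2 of the 10 had a p under 0.05, where 5.57% of all genes did. They were Nfkbiz and Tnfaip3, on the higher side, which held 2.8% of all genes, and 0 were on the lower side, which held 2.77%. The genotypes did not overlap for 5 members, Nfkb1, Rela, Nfkbia, Nfkbid and Tnfaip3, each with the Aire-/- pair on top, as for 17.1% of all genes tested, and 0 members had the Aire-/- pair below, as 17.3% of all genes did. The lean was not even across libraries: the number above 0 was 8 when Aire-/- replicate 1 was left out and 6 when Aire-/- replicate 2 was. It was 9 when Aire+/+ replicate 1 was left out and 6 when Aire+/+ replicate 2 was. Such fits take the spread of a single library from the remaining pair.

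**Figure D1:**
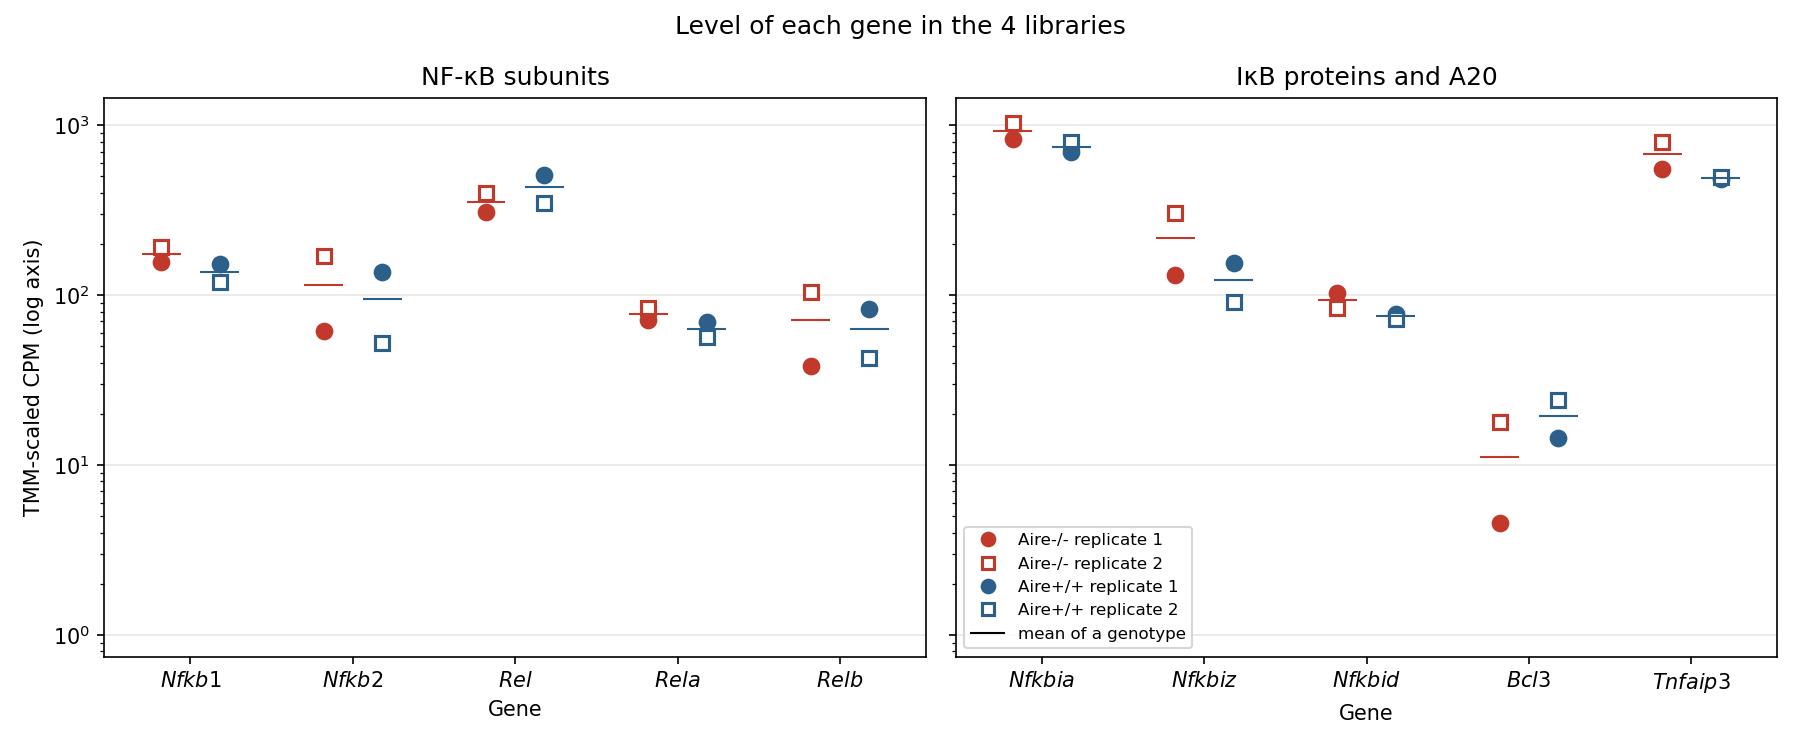
Level of each gene in TMM-scaled CPM on a log axis, with 1 point per library (red Aire-/-, blue Aire+/+, filled replicate 1, open replicate 2) and a line at the mean of each genotype. Nfkbia and Tnfaip3 stand highest and Bcl3 lowest. For Nfkb2, Relb and Rel the libraries of each genotype lie further apart than the genotype means. For Nfkbiz, Bcl3 and Tnfaip3 those of the Aire-/- pair do.

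Levels of different genes were compared per kilobase of the longest coding transcript. Nfkbia, which encodes IκBα, the inhibitor that holds RelA and c-Rel dimers in the cytoplasm, came first at 587 ± 90.1 CPM per kilobase in Aire-/- and 472 ± 45.5 in Aire+/+ libraries (SD, n = 2 each). Tnfaip3, the gene of A20, followed at 153 ± 40.2 in Aire-/- and 110 ± 2.6 in Aire+/+ libraries. The ranges over the 4 libraries of Nfkbia, Tnfaip3 and Rel did not overlap each other, at 439 to 651, 109 to 181 and 41.2 to 68.7 CPM per kilobase. Below them Rel, Nfkbid, Nfkbiz, Nfkb1, Relb, Nfkb2 and Rela formed a continuous order in which each range overlapped the next, with means over all libraries of 52.5 down to 25.9 CPM per kilobase. Bcl3 stood apart at the bottom, at 2.47 to 12.9 CPM per kilobase. With the mean length of the coding transcripts in place of the longest, Nfkbia, Tnfaip3, Rel and Bcl3 kept their places and the order between them changed, Rela standing at rank 5 in place of 9 and Nfkbid at rank 7 in place of 4.

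Among the subunits, Rel, which encodes the lymphocyte subunit c-Rel, was the most abundant per kilobase. Its 308 and 397 CPM in Aire-/- libraries overlapped the 513 and 350 CPM in Aire+/+ libraries, and it was the 1 subunit with a log2 fold change below 0 (-0.29, SE 0.22, adjusted p = 0.95, edgeR). The highest value was that of Aire+/+ replicate 1, the library richest in B cell markers, and without it the difference was 0.00. Rel took 29.7% and 23.9% of the summed level per kilobase of the 5 subunits in Aire-/- libraries, against 33.6% and 36.2% in Aire+/+ libraries. The part that B cell transcripts had in these Rel values was not tested.

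Nfkb1 encodes p105, the precursor of p50. It stood at 157 and 192 CPM in Aire-/- libraries and 153 and 119 CPM in Aire+/+ libraries. The lowest Aire-/- value lay just above the highest Aire+/+ value, and the difference did not pass the test (log2 fold change 0.36, SE 0.23, adjusted p = 0.94, edgeR). Rela, the gene of the main activating subunit p65, had a difference of like size, at 71.2 and 83.9 CPM in Aire-/- and 69.5 and 56.5 CPM in Aire+/+ libraries (0.30, SE 0.28, adjusted p = 0.97, edgeR). For both genes the groups were separated by less than the distance between libraries of 1 genotype. An annotated transcript of unknown status, Gm43430, lies within Nfkb1 on the same strand, and no annotated gene overlaps Rela.

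Nfkb2 and Relb, the p100/p52 and RelB pair of the slower branch, varied most of the subunits between libraries of the same genotype. Nfkb2 (chromosome 19, 46304320 to 46312385, GRCm38) had 67 and 180 counts in Aire-/- libraries and 169 and 61 counts in Aire+/+ libraries, or 61.2 and 170 against 137 and 52.2 CPM. Relb (chromosome 7, 19606217 to 19629438) had 42 and 111 counts in Aire-/- libraries and 103 and 50 counts in Aire+/+ libraries, or 38.4 and 105 against 83.2 and 42.8 CPM. For both genes Aire-/- replicate 2 and Aire+/+ replicate 1 were the high libraries, so each genotype had a high and a low library. The exact 95% Poisson intervals of the Nfkb2 counts, which cover counting error only, ran from 51.9 to 85.1 and from 155 to 208 in the Aire-/- libraries. In the Aire+/+ libraries they ran from 144 to 196 and from 46.7 to 78.4. The log2 fold change between genotypes was 0.28 for Nfkb2 (SE 0.46, adjusted p = 0.98, edgeR) and 0.18 for Relb (SE 0.43, adjusted p = 0.99, edgeR). It turned to -0.63 and -0.72 without Aire-/- replicate 2, and to -0.25 and -0.22 without Aire+/+ replicate 2. Within a library, the ratio of Relb to Nfkb2 per kilobase varied less, at 1.09 and 1.07 in Aire-/- and 1.06 and 1.43 in Aire+/+ libraries. Psd and a long noncoding RNA overlap Nfkb2 on the opposite strand, from which its reads cannot be told apart here, and no annotated gene overlaps Relb.

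The size of this spread was set beside that of other genes of like abundance. Across 3721 tested genes of 50 to 1000 CPM, the higher library exceeded the lower by a median of 0.25 on the log2 scale in the Aire-/- pair and 0.25 in the Aire+/+ pair (0.5 CPM added). Nfkb2 differed by 1.46 in the Aire-/- pair and 1.38 in the Aire+/+ pair, and 0.484% and 0.537% of those genes had a larger spread. Relb differed by 1.44 in the Aire-/- pair and 0.95 in the Aire+/+ pair, with 0.564% and 2.79% of genes above it. Nfkbiz, at 1.20 in the Aire-/- pair and 0.76 in the Aire+/+ pair, followed the same order of libraries within each genotype. By contrast Nfkb1, Rela, Nfkbia and Nfkbid differed by 0.09 to 0.36 within a pair, on either side of the median of 0.25. With smaller differences, Nfkb1, Rela and Rel also had the same higher library in each genotype as Nfkb2. Nfkbia, Tnfaip3 and Bcl3 shared it in the Aire-/- pair only, and Nfkbid in the Aire+/+ pair only. Bcl3, below that range of abundance, differed by 1.86 in the Aire-/- pair and 0.70 in the Aire+/+ pair. Junb, an AP-1 factor on the list of target genes that was picked after its values were seen, had the same high libraries, at 728 and 2624 CPM in Aire-/- and 1429 and 506 CPM in Aire+/+ libraries. B cell markers took another order: their sum without Igj was lowest in Aire-/- replicate 2, at 2586 CPM, where Nfkb2, Relb, Nfkbiz and Junb were highest. The highest sum was that of Aire+/+ replicate 1, at 5307 CPM. Macrophage and monocyte markers summed to 385 and 438 CPM in Aire-/- and 890 and 464 CPM in Aire+/+ libraries. Their higher library in each genotype was the same as for Nfkb2, but in the Aire-/- pair that order rested on Lyz2. Lyz2 had 0.913 and 57.5 CPM in Aire-/- and 150 and 1.71 CPM in Aire+/+ libraries. The part of the cell mixture in this spread was not tested.

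**Figure D2:**
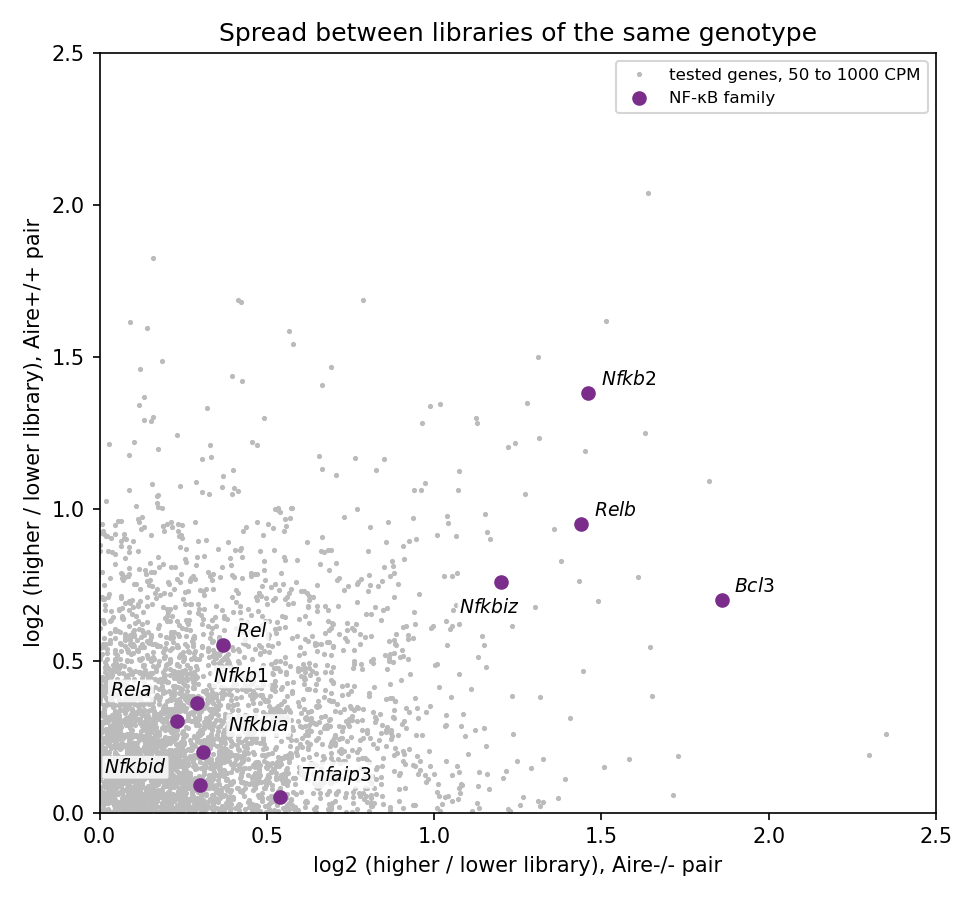
Distance between the 2 libraries of a genotype as log2 of the higher over the lower (0.5 CPM added), Aire-/- pair on the x axis and Aire+/+ pair on the y axis, for tested genes of 50 to 1000 CPM (grey, of which 4 lie beyond the axes) and the 10 members (purple, Bcl3 being below 50 CPM). Nfkb2, Relb and Nfkbiz lie far from the origin on both axes, at 1.20 to 1.46 in the Aire-/- pair, and Bcl3, the least abundant, lies furthest out in that pair at 1.86, with 0.70 in the Aire+/+ pair.

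Among the inhibitors, Nfkbia had 826 and 1027 CPM in Aire-/- libraries and 693 and 795 CPM in Aire+/+ libraries. The groups did not overlap, but the difference did not pass the test (log2 fold change 0.32, SE 0.18, adjusted p = 0.92, edgeR). Tnfaip3 had 551 and 802 CPM in Aire-/- libraries and 480 and 496 CPM in Aire+/+ libraries. Here too the groups did not overlap, with the Aire+/+ pair close together and Aire-/- replicate 2 well above the rest (0.47, SE 0.20, unadjusted p = 0.039, adjusted p = 0.89, edgeR's quasi-likelihood test). Without Aire-/- replicate 2 the Tnfaip3 difference was 0.17. Without Aire-/- replicate 1 it was 0.72, and without either Aire+/+ library it was 0.44 to 0.49. Per kilobase, Tnfaip3 was 0.238 and 0.279 times Nfkbia in Aire-/- libraries, against 0.247 and 0.223 times in Aire+/+ libraries.

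The other 3 inhibitors are nuclear IκB proteins, which bind p50 or p52 on DNA and can repress or co-activate. Nfkbiz encodes IκBζ, which in mouse helper T cells helps to induce interleukin-17. It had the largest log2 fold change of the 10 members towards Aire-/- libraries (0.83, SE 0.35, unadjusted p = 0.036, adjusted p = 0.89, edgeR's quasi-likelihood test), at 132 and 304 CPM in Aire-/- and 154 and 90.7 CPM in Aire+/+ libraries. The groups overlapped, since Aire-/- replicate 1 lay below Aire+/+ replicate 1. Of the 4 libraries, leaving out Aire-/- replicate 1 gave a call (1.32, adjusted p = 0.032, edgeR) and leaving out Aire-/- replicate 2 gave a difference of 0.10. Nfkbid, the gene of IκBNS, was steadier, at 103 and 83.9 CPM in Aire-/- and 77.6 and 72.7 CPM in Aire+/+ libraries. Its groups did not overlap and the difference was small (0.32, SE 0.25, adjusted p = 0.95, edgeR). Bcl3, a partner of p50 and p52 homodimers, was the lowest member, with 5 and 19 counts in Aire-/- and 18 and 28 counts in Aire+/+ libraries. Its groups overlapped, and its log2 fold change, -0.77 with an SE of 0.63 (adjusted p = 0.95, edgeR), was the 1 below 0 among the inhibitors, at counts whose exact 95% Poisson intervals ran as wide as 1.62 to 11.7 for Aire-/- replicate 1. Antisense genes overlap Bcl3 on the opposite strand, Gm16174 and Gm16175, from which its reads cannot be told apart here.

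**Figure D3:**
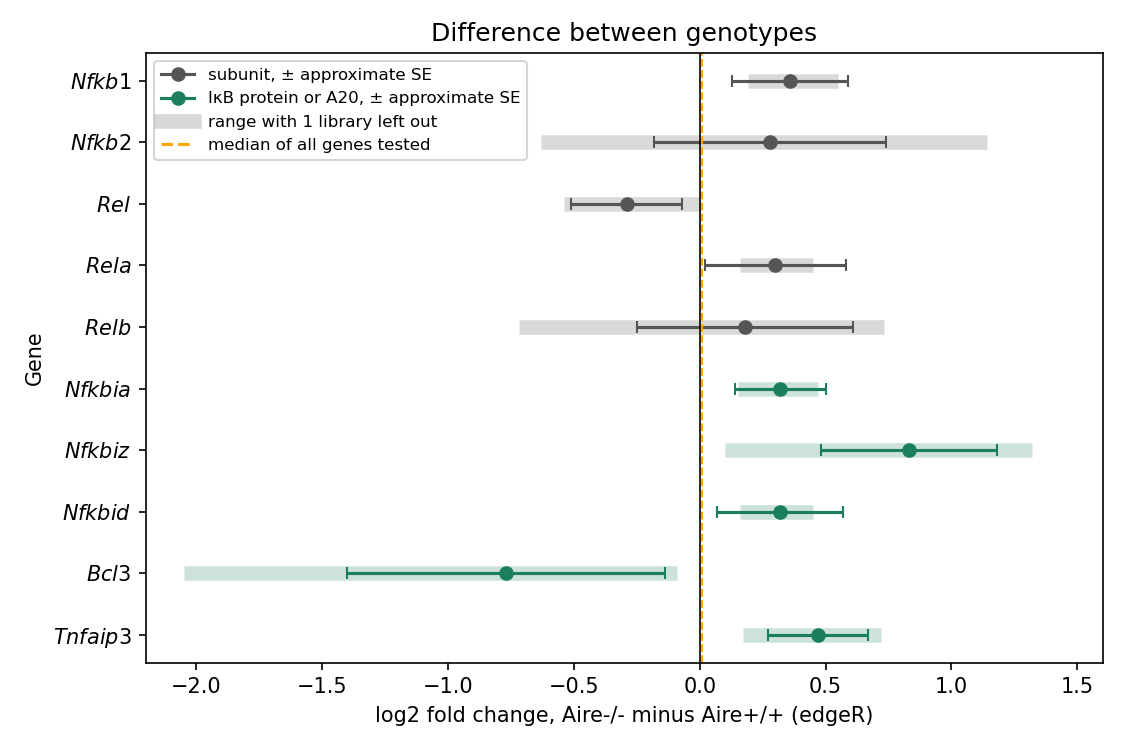
Log2 fold change, Aire-/- minus Aire+/+, of each gene in the fit over all genes (points, with approximate SE) and its range when each library is left out in turn (wide bands). The bands of Nfkb2 and Relb cross 0, that of Rel reaches 0.00, and those of Nfkb1, Rela, Nfkbia, Nfkbiz, Nfkbid and Tnfaip3 stay above it.

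Subunits and inhibitors were set against each other, the inhibitors including the nuclear IκB genes Nfkbiz, Nfkbid and Bcl3, whose proteins can also co-activate. The 5 subunits had a median log2 fold change of 0.28, with 4 above 0, and the 5 inhibitors one of 0.32, with 4 above 0. The inhibitor median exceeded the subunit median by 0.03. A related quantity, the median log2 level of inhibitors minus that of subunits in each library, had an SD of 0.26 between libraries of a genotype. It is taken from levels and not from fold changes, so it is no direct measure of the spread of the 0.03. Without Aire-/- replicate 2 or without Aire+/+ replicate 2 the gap was 0.64 in either case, and without Aire+/+ replicate 1 it was -0.19. The subunit median moved from library to library more than the inhibitor median: it was -0.49 without Aire-/- replicate 2 and -0.22 without Aire+/+ replicate 2, while the inhibitor median lay between 0.15 and 0.47 whichever library was left out. As summed levels per kilobase, inhibitors exceeded subunits 5.28 and 4.30 times in Aire-/- libraries and 3.08 and 5.30 times in Aire+/+ libraries, so the genotypes overlapped. Nfkbia made up 71.4% and 68% of the inhibitor sum in Aire-/- libraries and 69.6% and 73.4% in Aire+/+ libraries. With 2 libraries against 2, an exact permutation test of a single value cannot give a two-sided p below 0.333, so none was run.

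Around the members, 0 of the 76 tested genes on 8 lists of the wider pathway were called by edgeR, DESeq2's Wald test or limma-voom at an adjusted p under 0.05, where edgeR called 0.0204% of all genes. An unadjusted p under 0.05 was found for 6 higher and 3 lower of the 76, beside 2.8% and 2.77% of all genes. Their median log2 fold change was 0.13, with 49 of 76 above 0, beside 50.9% of all genes. The other IκB genes did not differ beyond their spread. Nfkbib (IκBβ) had a log2 fold change of -0.12 and Nfkbie (IκBε), a further feedback inhibitor, one of 0.06. Nfkbie had 94.1 and 193 CPM in Aire-/- libraries around 145 and 129 CPM in Aire+/+ libraries, again with Aire-/- replicate 2 highest.

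Of the IKK kinases and their activators, 6 of 10 tested lay above 0, at a median of 0.09. Those with the smallest p were Map3k3, a kinase upstream of IKK (-0.50), and Tab2 (0.36) and Tab1 (0.62), partners of the kinase TAK1, with adjusted p of 0.94 each by edgeR. In the relay from the antigen receptor 2 of 5 lay above 0 (median -0.06). Prkcb, the protein kinase C of B cells, had 167 and 90.5 CPM in Aire-/- libraries and 246 and 142 CPM in Aire+/+ libraries (-0.59), and Prkcq, its counterpart in T cells, had 72.2 and 54.7 CPM in Aire-/- and 28.3 and 59.0 CPM in Aire+/+ libraries (0.54). The highest Prkcb and the lowest Prkcq stood in Aire+/+ replicate 1, the library with the most B cell and the fewest CD3 transcripts, and the part of that mixture in these values was not tested.

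In the relay from interleukin-1 and Toll-like receptors 7 of 9 lay above 0 (median 0.14). Irak2, a kinase-like relay protein, had 155 and 178 CPM in Aire-/- and 93.7 and 140 CPM in Aire+/+ libraries (log2 fold change 0.51, SE 0.25, adjusted p = 0.91, edgeR). Tirap, an adaptor of Toll-like receptors, had 27.4 and 22.6 CPM in Aire-/- and 39.6 and 39.4 CPM in Aire+/+ libraries (-0.65), and Irak3, an inhibitory member of the same family, had a log2 fold change of 0.32. For Irak2 and Tirap the groups did not overlap, in opposite directions, beside 17.1% of all genes tested wholly above and 17.3% wholly below. In the TNF receptor relay 6 of 11 lay above 0 (median 0.06). Sharpin and Rnf31, a pair of the subunits of the linear ubiquitin ligase that supports IKK activation, lay below 0. Sharpin had 25.6 and 46.2 CPM in Aire-/- and 63.0 and 68.4 CPM in Aire+/+ libraries (-0.87, SE 0.35, unadjusted p = 0.026, adjusted p = 0.89, edgeR's quasi-likelihood test). Rnf31 had 43.8 and 45.3 CPM in Aire-/- and 57.4 and 59.0 CPM in Aire+/+ libraries (-0.38, adjusted p = 0.95, edgeR). The other subunit of that ligase, Rbck1, lay above 0, at 200 and 213 CPM in Aire-/- and 177 and 186 CPM in Aire+/+ libraries (0.19, adjusted p = 0.97, edgeR). Birc3, the ubiquitin ligase cIAP2, had a log2 fold change of -0.29 and was highest in Aire+/+ replicate 1, at 252 CPM.

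The other negative regulators had 7 of 12 above 0 (median 0.10), with Commd1 at -0.61, Nlrc3 at 0.44 and Zc3h12a, the RNase Regnase-1, at -0.49. Among the upstream receptors 7 of 12 lay above 0 (median 0.10). Il1r1, the signalling interleukin-1 receptor, had 151 and 244 CPM in Aire-/- and 143 and 121 CPM in Aire+/+ libraries (0.58, SE 0.26, adjusted p = 0.89, edgeR), and the difference was 0.18 without Aire-/- replicate 2. Il1r1 is also on the list of γδ T17 markers, so it counts in both lists. Il18r1, the interleukin-18 receptor chain, had 503 and 469 CPM in Aire-/- and 292 and 437 CPM in Aire+/+ libraries (0.42, adjusted p = 0.91, edgeR). Both receptors had groups that did not overlap, and they were the 2 of the 12 with the Aire-/- pair wholly above. The pair lay wholly below for 3, Il1rap (-0.60), Il1rl1 (-0.75) and Cd40. Of all genes tested, 17.1% lay wholly above and 17.3% wholly below. Cd40, a receptor of B cells and antigen-presenting cells, had 24.7 and 26.4 CPM in Aire-/- and 54.1 and 41.9 CPM in Aire+/+ libraries (-0.91, SE 0.35, adjusted p = 0.89, edgeR), in the direction of the B cell marker sum, whose part was not tested. The lymphotoxin receptor gene Ltbr had 0 to 3 counts per library and was not tested.

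Known NF-κB target genes leaned to Aire-/- libraries in most cases. Of 27 on the list, 18 passed the filter, of which 15 had a log2 fold change above 0, at a median of 0.43, beside 50.9% of all genes tested above 0 and 10 of 10 γδ T17 markers, at a median of 0.44, whose part in this was not tested. The Aire-/- pair lay wholly above the Aire+/+ pair for 11 and wholly below it for 0, beside 17.1% and 17.3% of all genes tested. These genes were listed with earlier results of the same libraries known, among them Ptgs2 and Gadd45b, so the count is no independent evidence of a direction. The 9 not tested, Ccl3, Ccl20, Cxcl2, Il6, Csf2, Vcam1, Ier3, Bcl2a1a and Bcl2a1d, were too low. Leaving out 1 library at a time kept the median between 0.40 and 0.50, while the count above 0 and the number tested changed. It was 17 of 19 without Aire-/- replicate 1 and 13 of 19 without Aire-/- replicate 2. Without Aire+/+ replicate 1 it was 18 of 20, and without Aire+/+ replicate 2 it was 16 of 20.

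Ptgs2, the inducible cyclooxygenase, had 62.1 and 106 CPM in Aire-/- and 17 and 24.8 CPM in Aire+/+ libraries (log2 fold change 2.00, SE 0.37, adjusted p = 0.30, edgeR). All 4 libraries showed its direction, and it was called without Aire-/- replicate 1 (2.34) and without Aire+/+ replicate 2 (2.29). Cxcl10, a chemokine that interferon also induces, rested on 1 library: it had 11.0 and 87.7 CPM in Aire-/- and 9.70 and 8.56 CPM in Aire+/+ libraries (2.41, SE 0.74, adjusted p = 0.83, edgeR), and its difference without Aire-/- replicate 2 was 0.26. It was called with any 1 of the other 3 libraries left out, at 2.33 to 3.25. Gadd45b, a stress-response gene, had 112 and 174 CPM in Aire-/- and 103 and 62.5 CPM in Aire+/+ libraries (0.79, adjusted p = 0.89, edgeR). Cd83, a surface protein of activated B and dendritic cells picked after its values were seen, lay the other way, at 755 and 948 CPM in Aire-/- and 1536 and 904 CPM in Aire+/+ libraries (-0.52, adjusted p = 0.89, edgeR). The highest of its values was again in Aire+/+ replicate 1; without that library its difference was -0.09, and without Aire+/+ replicate 2 it was called at -0.85.

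**Figure D4:**
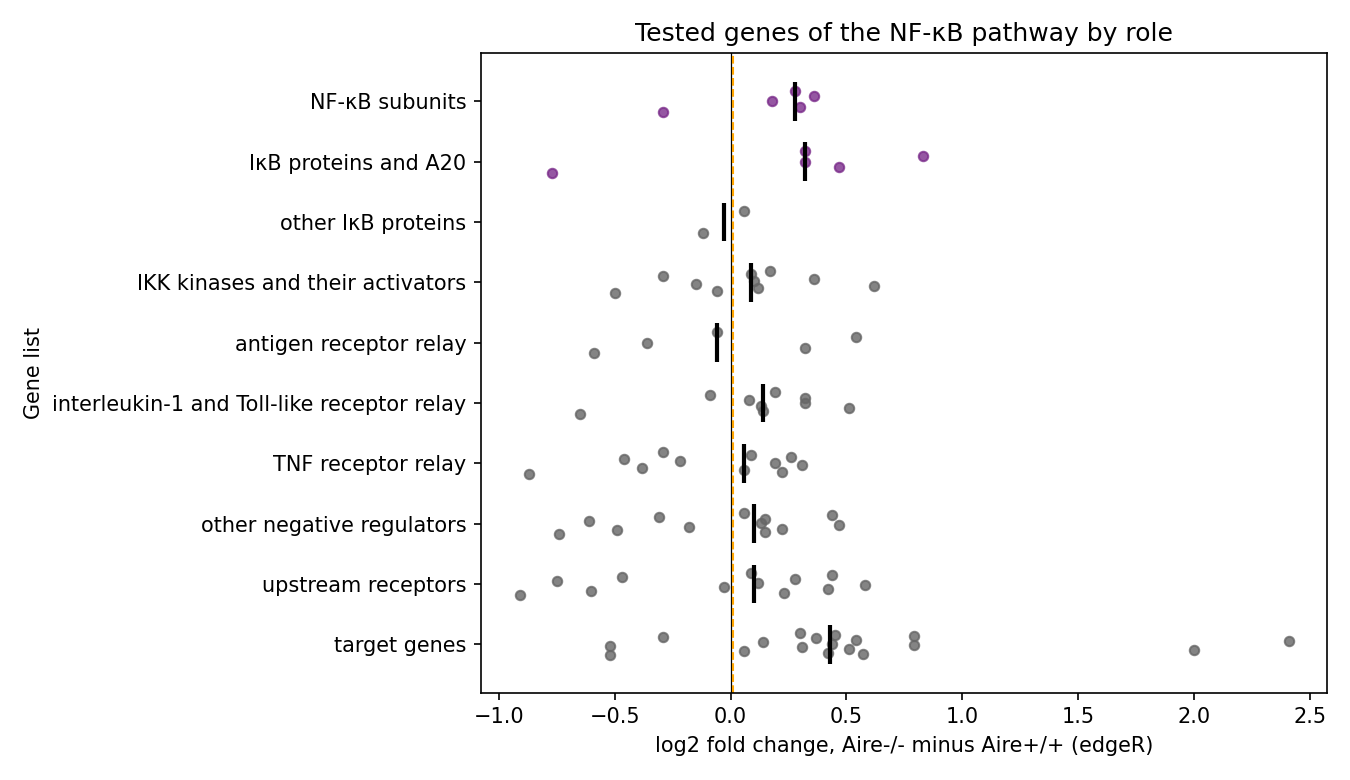
Log2 fold change, Aire-/- minus Aire+/+, of the tested genes of each list (points, spread vertically for legibility only) with the median of each list (black bars) and of all genes tested (dashed line at 0.01). The medians lie between -0.06 and 0.43, that of the target genes being furthest to the right, with Ptgs2 at 2.00 and Cxcl10 at 2.41.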

How the data were processed

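Whole-number read counts per gene symbol, 1 column per library, were deposited by the authors in 1 table and show no normalization, per the file headers and values. TopHat2 2.0.10, Cufflinks 2.2.1 and the build mm10 are named without role, per the submitters' processing notes; the sources used here do not give read assignment, annotation, strand or duplicate handling. Smart-Seq2 reads carry no molecular identifiers, so Poisson intervals and the floor of 3 counts cover counting error only.

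Genotype and replicate came from the sample titles. Counts were tested with edgeR 4.0.16 (R 4.3.3, TMM, filterByExpr with minimum count 10 and minimum total 15, quasi-likelihood test on genotype, Benjamini-Hochberg over all 9783 genes left), called at an adjusted p under 0.05. The SE is the absolute log2 fold change over the square root of F. The steps were tested on simulated data. Depth ran from 1106891 to 1265239 counts. Alternatives were DESeq2 1.42.0 size factors and Wald test, upper-quartile factors, limma-voom (limma 3.58.1), no filter, 10 CPM in 2 libraries, a robust fit, an adjusted p under 0.1, a replicate block, Rn45s left out and each library left out.

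Members, lists and tests were chosen with earlier results of these data known. Named pathway genes are up to 3 per list with the smallest p, of which 1 is not reported here; Junb, Cd83, Rbck1 and Ccr7 were picked after their values were seen. Positions, lengths and overlaps are from GENCODE M21 (GRCm38), promoters from RefSeq (GRCm38.p6), matched by symbol for 7 of 10 members. Ratios of levels use the longest coding transcript.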

Additional observations from a re-analysis of the deposited data

How the results depend on the processing

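Of the 90 differences of the 10 members under the 9 alternatives that keep all libraries, 90 kept their direction and their side of the threshold. With each library left out in turn, 34 of 40 did. The range of the log2 fold change was then -0.63 to 1.14 for Nfkb2, -0.72 to 0.73 for Relb, -0.54 to 0.00 for Rel and 0.10 to 1.32 for Nfkbiz, which was called once (adjusted p = 0.032, edgeR). The gap of inhibitor over subunit medians ranged from -0.19 to 0.64. Of the pathway genes, Nfkbib ranged from -0.34 to 0.14, Nfkbie from -0.55 to 0.50 and Junb from -0.42 to 1.72, and Nfkbie turned to -0.03 with limma-voom and -0.01 with the replicate block. Called inhibitors numbered 0 to 1 and called target genes 0 to 3 with a library left out, and 3 target genes (Cxcl10, Junb and Ptgs2) were called with no filter. Over all genes edgeR called 0 higher and 2 lower. With no filter it called 21 higher and 26 lower, with the replicate block 2 and 4, limma-voom called 1 lower, and with a library left out 5 to 21 were higher and 6 to 42 lower; the cause was not tested. The labels do not say that a replicate number is shared between genotypes, and deviations of replicate 1 of either genotype correlated at -0.077 over 9783 genes. The block changed no call of a member. Per kilobase, the mean transcript length gave 240 CPM for Tnfaip3 in place of 132, 49.1 for Nfkb1 in place of 37.7 and 45.7 for Rela in place of 25.9. At this depth Bcl3, with 5 to 28 counts, is the least precise member.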
